A study of Mus musculus with 6 samples.

Results

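The proteasome is described here through 51 genes of mouse CD8+ T cells, out of 18288 genes with a measured value. They were taken by symbol, as every gene whose name starts with Psma, Psmb, Psmc, Psmd, Psme, Psmf or Psmg followed by a digit, and whose mean normalized count over the 6 libraries was at least 10. The prefix was carried by 53 symbols, and Psma8 (mean 3.07), a testis form of an alpha ring subunit, and the pseudogene Psmb6-ps2 (mean 6.41) were left out by the mean. The member nearest to that limit was the pseudogene Psmb7-ps1, with a mean of 10.4, and the next lowest was the pseudogene Psma5-ps with a mean of 355.

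The libraries came from CD8+ T cells that were activated in culture and harvested at day 2. Of the 6 libraries, 3 were labelled Nae1T-KO and 3 Nae1WT, and all were prepared alike, from poly-A RNA with random hexamer priming. Nae1 encodes the regulatory subunit of the enzyme that activates NEDD8, a ubiquitin-like protein. The labels give the genotype names, the cell type and biological replicate numbers, and they do not state which promoter drove the deletion, in which cells it acted, which part of Nae1 was removed, the age of the mice or the stimulus used for activation. Totals of recovered reads ranged from 15628252 to 25444653 per library.

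Nae1 itself, the targeted gene, stood at 390.3, 337.5 and 366.6 normalized counts in replicates 1 to 3 of Nae1T-KO and at 1601, 1806 and 1882 in Nae1WT. The groups did not overlap, and the log2 fold change was -2.27 ± 0.09 (SE, n = 3 per group; limma adjusted p = 5.03e-07). Of 7 CD8 T cell markers in the data, among them Cd8a, Cd3e and Gzmb, all were expressed in every library, with sums of 76286 to 99546, and 2 of the 7 were lower in Nae1T-KO (adjusted p under 0.05), beside 6.18% of all genes tested. The groups overlapped for Cd8a, Cd3e and Gzmb. They did not for Cd3g (2226, 2081 and 2445 in Nae1T-KO against 3261, 3386 and 2959 in Nae1WT) and Prf1 (1162, 1030 and 1020 against 1355.5, 1490 and 1337). The summed B cell markers were 784.0, 1774 and 754.3 in Nae1T-KO, compared with 580.8, 492.4 and 889.2 in Nae1WT, for 10 of 10 markers, and Cd79a and Pax5 were above 0 in every library. Of 13 myeloid and dendritic markers 6 had a value, with sums of 93.9, 170.1 and 97.9 against 55.3, 26.1 and 42.6, and Itgam, Itgax and Cd14 were at 0 in at least 1 Nae1WT library; 3 of the 6 passed the filter for testing, and 1 of these was higher in Nae1T-KO by the same test. The 6 erythroid markers, globins among them, summed to 356.8, 2042 and 193.9 in Nae1T-KO, compared with 142.4, 314.6 and 628.9 in Nae1WT. Sums were 109.8 to 273.2 for 4 CD4 T cell markers and 9.69 to 26.3 for 2 NK and gamma-delta T cell markers. Nae1T-KO replicate 2 was the highest library for B cell, myeloid and erythroid markers, and the part of these cells in the results was not tested. By Xist and Y-linked transcripts, Nae1T-KO replicates 1 and 2 and Nae1WT replicate 3 were female and the other libraries male.

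The 20S core is a barrel whose outer alpha rings gate entry and whose inner beta rings hold the proteolytic sites, and the 19S cap on its ends binds ubiquitylated proteins, removes the ubiquitin and feeds the unfolded chain into the barrel with a ring of ATPases. In lymphocytes and in cells exposed to interferon, the catalytic beta subunits are replaced by the immunoproteasome subunits Psmb8, Psmb9 and Psmb10, which changes the peptides offered on MHC class I. Neddylation meets this route upstream, because NEDD8 activates the cullin-RING ligases that mark many proteasome substrates with ubiquitin.

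Proteasome transcripts differed little between the genotypes. Of the 51 genes, 3 were higher in Nae1T-KO, none was lower and 48 did not pass the test. The genes that passed were Psmd4, Psmd3 and Psmd7, all of the 19S cap, by 16.1 to 20.2%. The log2 fold changes of the 51 genes ran from -0.30 to 0.27, with a median of -0.004, against -0.006 over all genes tested. These changes, and all that follow, are on the log2(normalized count + 1) scale, and a call is a limma p-value below 0.05 after Benjamini-Hochberg adjustment over the 13819 genes tested, which included all 51. In bulk RNA, fewer cells of a type and less RNA per cell cannot be told apart.

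Over all genes tested, 12.7% were called, 6.53% as higher and 6.18% as lower. The share of the proteasome genes was 5.88%. Among genes with a normalized count of at least 100 in 3 libraries, where every member except Psmb7-ps1 lies, 16.8% were called. An unadjusted p under 0.05 was reached by 12 of the 51 genes, 7 of them higher and 5 lower, against 29.1% of all genes. As for genes called lower, edgeR and limma-voom on recovered reads also gave 0 and DESeq2 gave 1, Psma4. The groups did not overlap for 17 of the 51 genes (33.3%), 11 with Nae1T-KO above Nae1WT and 6 below, beside 33.7% of all genes tested. The spread of effects was narrower for the proteasome genes: their median absolute log2 fold change was 0.13 and the 90th percentile 0.22, where all genes tested had 0.19 and 0.63. The genes were not matched for expression in this comparison. The median standard error of the log2 fold change was 0.08 for the proteasome genes and 0.12 for all genes tested. The 95% interval of the change lay within 0.5 log2 units of 0, a 1.41-fold difference, for 49 of the 51 genes (96.1%) and for 49.7% of all genes. Intervals are narrower for well expressed genes, and 34 of the 51, the subunits of the 26S particle, had means of 1556 to 9082.

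**Figure D1:**
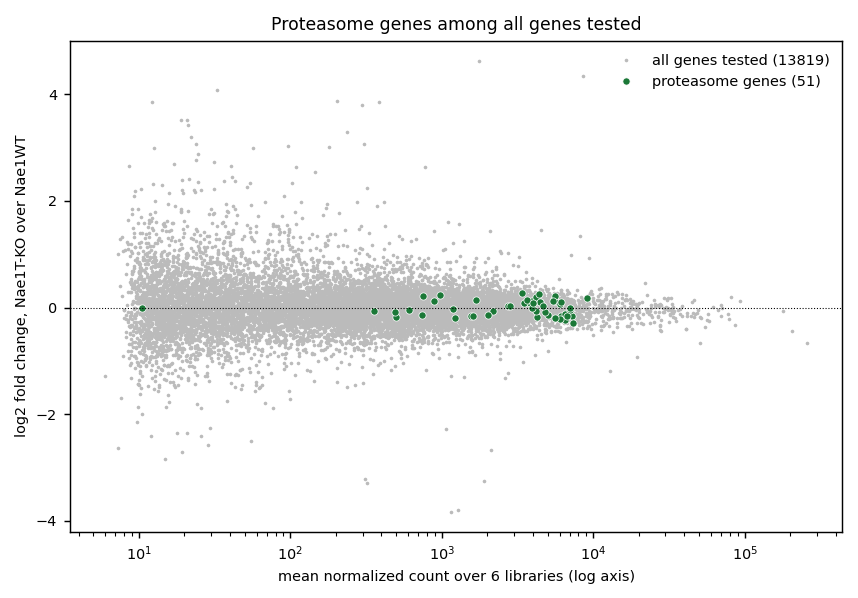
Log2 fold change of Nae1T-KO over Nae1WT (vertical axis) against the mean normalized count over 6 libraries (horizontal log axis) for the 13819 genes tested, with the 51 proteasome genes in green. The proteasome genes lie between -0.30 and 0.27, near the centre of the cloud, and most have means above 1000.

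The 19S cap held all the calls. Its 17 measured subunits had a median log2 fold change of 0.10, with 13 positive and 4 negative values, 3 called higher (17.6%, against 6.53% of all genes) and none lower. Called in either direction were 12.7% of all genes and 16.8% of genes with a normalized count of at least 100 in 3 libraries. There was no overlap of the groups for 7 of the 17 cap genes (41.2%, beside 33.7% of all genes tested), in each case with Nae1T-KO above Nae1WT. Psmd4 is a ubiquitin receptor that sits where the base meets the lid. Its normalized counts were 3791, 3441 and 3876.5 in the Nae1T-KO libraries against 2979, 3109 and 3143 in Nae1WT. Every Nae1T-KO library was above every Nae1WT library, and the log2 difference was 0.27 ± 0.07 (SE, n = 3 per group; 95% interval 0.11 to 0.42; adjusted p = 0.031). Psmd3, a structural subunit of the lid, had 4881, 4876 and 4425 in Nae1T-KO against 3815, 3924 and 4225 in Nae1WT, again without overlap, and its log2 fold change was 0.25 ± 0.07 (adjusted p = 0.046). Psmd7, the lid partner of the deubiquitinase Psmd14, had 6229.6, 5771 and 5935 in Nae1T-KO against 5162, 5177 and 5105 in Nae1WT. The Nae1WT libraries were close together and all below Nae1T-KO, and the log2 fold change was 0.22 ± 0.06 (adjusted p = 0.046).

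These calls lay near the threshold. Psmd4 passed in 12 of 19 alternative settings and Psmd3 and Psmd7 in 10 each, with the direction the same in all of them. With sex as a covariate Psmd4 alone passed (log2 fold change 0.27, adjusted p = 0.043), and Psmd3 and Psmd7 had adjusted p-values of 0.076 and 0.07. Leaving out single libraries ended the call of Psmd4 for each library but Nae1T-KO replicate 2 (adjusted p = 0.053 to 0.093). It ended the calls of Psmd3 (0.073 to 0.149) and Psmd7 (0.064 to 0.152) for each library but Nae1T-KO replicate 3.

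By RefSeq on GRCm38.p6, Psmd4 lies on chromosome 3 from 95032688 to 95042614, Psmd3 on chromosome 11 from 98682554 to 98695978 and Psmd7 on chromosome 8 from 107580380 to 107588482. None of the 3 overlaps another measured gene. The 120 bases before the start of Psmd4 are shown because it had the largest change of the genes called and the only match to the interferon response element among the cap promoters with a window. They come from RefSeq, chr3:95042615-95042734, minus strand, and capitals mark 1 match each to CCAAT and to GAAA repeated after NN (the interferon response element), both read here from the opposite strand.
Psmd4: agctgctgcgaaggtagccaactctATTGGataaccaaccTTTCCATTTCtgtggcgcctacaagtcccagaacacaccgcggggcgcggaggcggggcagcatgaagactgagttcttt

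Of the other base subunits, the 6 ATPases that thread the substrate had a median log2 fold change of 0.13 and no call. Psmc5 was nearest, with 4424.5, 4379 and 4717 in Nae1T-KO, compared with 3885, 4087 and 3814 in Nae1WT, no overlap and a change of 0.20 ± 0.06 (adjusted p = 0.071). Scaled to total counts it passed (0.24, adjusted p = 0.027). Psmc6, the ATPase gene with the highest normalized count, not adjusted for length, had the opposite sign, with 6261, 5386 and 6507 against 6407, 7658 and 7172. Its groups overlapped and its log2 fold change was -0.23 ± 0.09 (adjusted p = 0.128). Psmc1, Psmc4 and Psmc3 lay at 0.13, 0.13 and 0.12, and Psmc2 at -0.002. Psmd2, a large scaffold of the base whose normalized count, not adjusted for length, was the highest of the 51 genes, had 9999, 9988 and 8943.5 in Nae1T-KO against 8993, 8085 and 8485 in Nae1WT. Nae1T-KO replicates 1 and 2 were above all Nae1WT libraries and replicate 3 was among them (log2 fold change 0.18 ± 0.07, adjusted p = 0.139). Without Nae1T-KO replicate 3, Psmd2 passed (0.23, adjusted p = 0.049). Psmd1, the other scaffold, lay at 0.10.

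Among the remaining lid subunits, Psmd8, Psmd12, Psmd14 and Psmd11 had log2 fold changes of 0.10, 0.10, 0.09 and 0.08, with adjusted p-values from 0.314 to 0.492. Psmd14, the metalloprotease that cuts ubiquitin chains off the substrate, had 3982, 3889.8 and 4488 in Nae1T-KO against 3761, 3972 and 3835 in Nae1WT. Only Psmd6 and Psmd13 were negative, at -0.18 (adjusted p = 0.172) and -0.06. The 2 cap subunits without the prefix had opposite signs. Adrm1, the ubiquitin receptor that also docks the deubiquitinase Uchl5, was higher in Nae1T-KO, with 2481, 2439 and 2605 against 1992, 2113 and 2225 (log2 fold change 0.25 ± 0.07, adjusted p = 0.038, called in 10 of 19 alternatives). Sem1, a small lid protein, lay at -0.21 (adjusted p = 0.253).

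None of the 14 constitutive core genes was called by limma, and 1 had an unadjusted p under 0.05, beside 29.1% of all genes tested. Their median log2 fold change was -0.06, with 5 positive and 9 negative values. The 7 alpha ring genes had a median of -0.09 and the 7 constitutive beta ring genes one of 0.03. Psma4, the alpha ring gene with the highest mean count, had 6669, 5747.5 and 7533 in Nae1T-KO against 7631, 8688 and 8056 in Nae1WT. It was the 1 core gene whose groups did not overlap, its log2 fold change being -0.30 ± 0.10 (adjusted p = 0.073), the largest absolute change of the 51 genes. DESeq2 on recovered reads called Psma4 lower (-0.29, adjusted p = 0.039), and so did limma without Nae1T-KO replicate 3 (-0.39, adjusted p = 0.016). Psma4 overlaps AY074887 by the RefSeq spans, and the counting rule for shared reads is not given in the sources used here. Psma3 and Psma2 had log2 fold changes of -0.22 and -0.12, Psma6 of -0.09 and Psma1 of -0.04, while Psma7 and Psma5 lay at -0.004 and 0.03.

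Of the catalytic beta genes, Psmb5, the chymotrypsin-like subunit, had 2560.1, 2359 and 3345 in Nae1T-KO against 2651, 2439 and 2965 in Nae1WT. The groups overlapped widely, since Nae1T-KO replicate 3 was the highest library and replicate 2 the lowest (log2 fold change 0.03 ± 0.13, adjusted p = 0.923). Psmb6, the caspase-like subunit, had 4036, 3457 and 4317 against 3391, 4051 and 3651 (0.09 ± 0.09, adjusted p = 0.582). Psmb7, the trypsin-like subunit, had 6439.9, 5809 and 6819 against 6516, 7653 and 7056 (-0.15 ± 0.08, adjusted p = 0.248). The widest interval of the beta ring belonged to the structural gene Psmb3, with 5369.5, 4484 and 5779 in Nae1T-KO, compared with 4895, 6598 and 6438 in Nae1WT (-0.19, 95% interval -0.48 to 0.10). Psmb1, Psmb2 and Psmb4, which carry no active site, lay at -0.14, 0.04 and 0.07.

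The core genes moved together from library to library within each group. Nae1T-KO replicate 2 was below its group mean for 14 of 14 core genes and Nae1T-KO replicate 3 for 0 of 14. In Nae1WT the counts were 13 of 14 for replicate 1, 1 for replicate 2 and 8 for replicate 3. Over all 51 genes, Nae1T-KO replicate 2 was the lowest of the 6 libraries for 23. Transcript length moved with these deviations: across 13076 genes of known length the Spearman correlation of length with the deviation from the group mean was 0.39 in Nae1T-KO replicate 2 and -0.34 in replicate 3, and over 50 of the proteasome genes it was 0.50 and -0.41. For the difference between the groups it was 0.05 over all genes and 0.10 over the proteasome genes. The median transcript length was 1162.5 nucleotides for the core and 1636 for the cap, and the part of length in the results was not tested. Without Nae1T-KO replicate 2, 1 proteasome gene was called higher (Psmd4, log2 fold change 0.32, adjusted p = 0.028) and none lower.

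**Figure D2:**
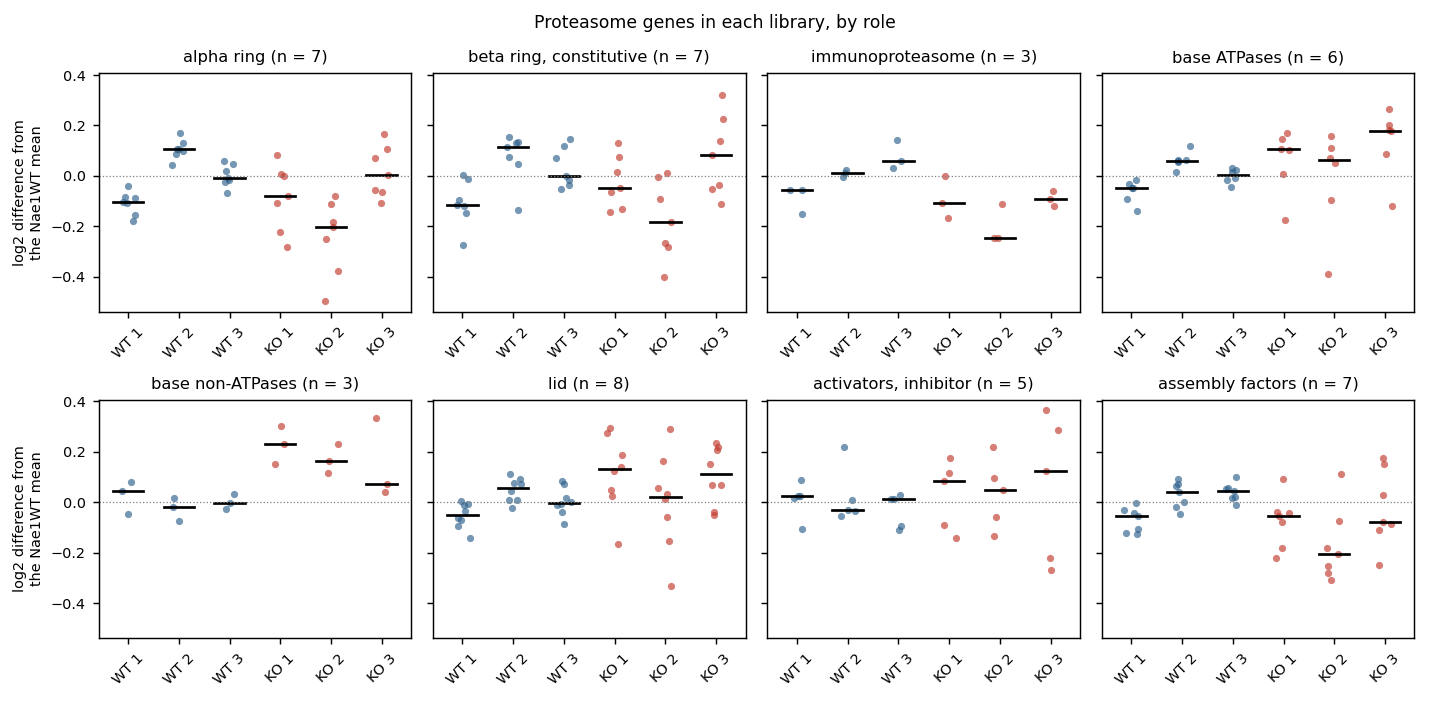
Log2 difference of each proteasome gene from its Nae1WT mean (vertical axis) in each library (horizontal axis), by role. Points are genes and bars are medians over the genes of each panel. Cap genes (base and lid panels) sit mostly above 0 in the Nae1T-KO libraries. Pooled over those panels, their median was 0.14, 0.06 and 0.15 in replicates 1 to 3. Core genes (alpha ring and constitutive beta ring panels) shift up or down by library, with pooled medians of -0.06, -0.19 and 0.04. The pooled medians are not drawn.

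Summed over genes, the cap took 0.458, 0.447 and 0.454% of all normalized counts in Nae1T-KO, compared with 0.408, 0.415 and 0.415% in Nae1WT. These shares did not overlap between the groups. Without division by the library total, the cap sums were 87098, 82166 and 86873 in Nae1T-KO against 78289, 82414 and 80460 in Nae1WT. The sums overlapped, as Nae1T-KO replicate 2 was below Nae1WT replicate 2. For the constitutive core the shares were 0.394, 0.364 and 0.418% against 0.377, 0.424 and 0.408%, which overlapped. The ratio of the cap sum to the core sum was 1.16, 1.23 and 1.09 in Nae1T-KO, compared with 1.08, 0.979 and 1.02 in Nae1WT, with Nae1T-KO replicate 3 and Nae1WT replicate 1 nearly level. The difference between cap and core was not tested. All 51 genes together held 1.05 ± 0.03% in Nae1T-KO and 1.02 ± 0.03% in Nae1WT (SD, n = 3 each). Within females, 1 Nae1WT library against 2 Nae1T-KO libraries, the median log2 difference was 0.10 for the cap and -0.12 for the core. Within males, 1 Nae1T-KO library against 2 Nae1WT libraries, it was 0.19 and 0.04. The core median thus had opposite signs in the sexes, and the cap median was positive in both. Neither difference between the sexes was tested.

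**Figure D3:**
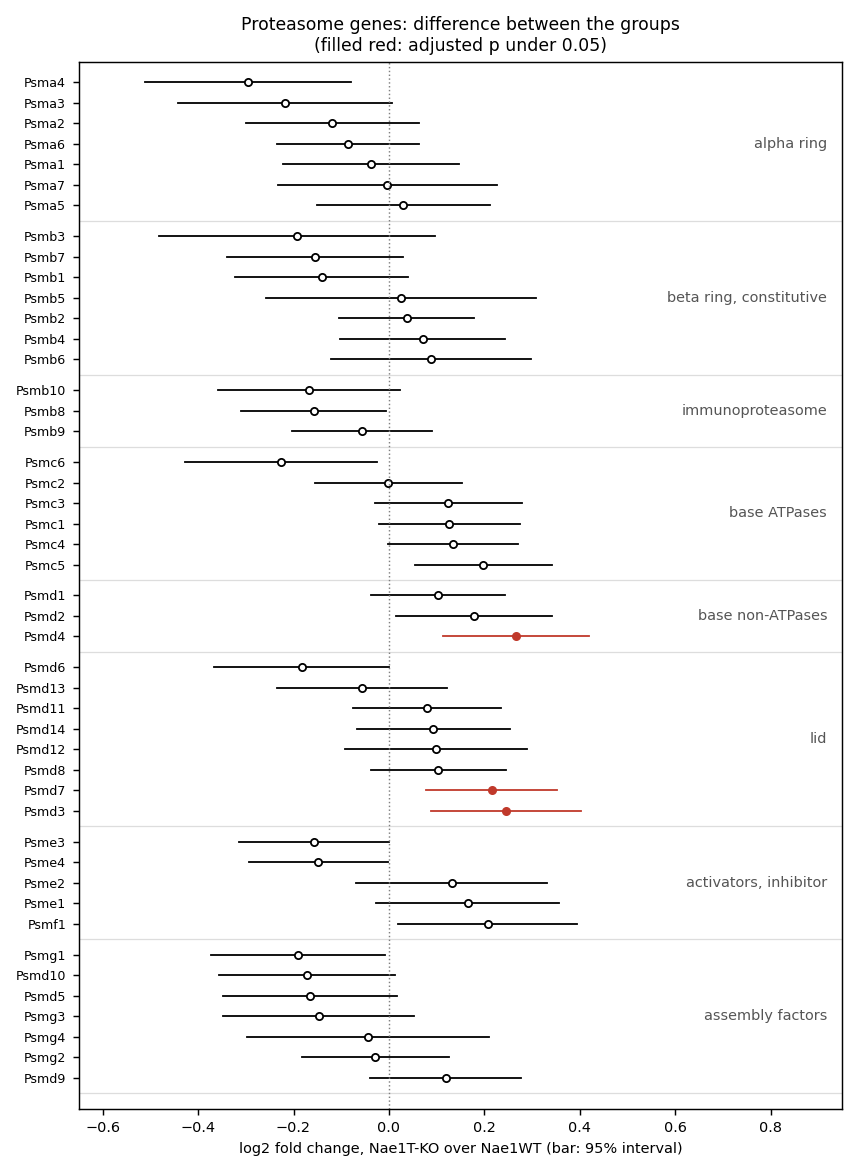
Log2 fold change of Nae1T-KO over Nae1WT (horizontal axis) with its 95% interval for 46 proteasome genes, grouped by role; filled red points are called. The called genes are Psmd4, Psmd3 and Psmd7, and most other intervals include 0.

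The 3 immunoproteasome genes each had a negative log2 fold change that did not pass the limma test. Of these, Psmb8 alone had an unadjusted p under 0.05, which 29.1% of all genes tested reached. Psmb8, the inducible partner of the chymotrypsin-like site, had 5999, 5444 and 5957 in Nae1T-KO against 6223, 6447 and 6739 in Nae1WT. The groups did not overlap, at a log2 difference of -0.16 ± 0.07 (from -0.31 to -0.007 at 95%; adjusted p = 0.155). Psmb9, which takes the caspase-like place, had 2213, 2045 and 2121.5 in Nae1T-KO against 2125, 2251 and 2261 in Nae1WT. Nae1T-KO replicate 1 lay among the Nae1WT libraries (-0.06 ± 0.07, adjusted p = 0.613). Psmb10, which takes the trypsin-like place, had 1464, 1386 and 1543 against 1478, 1654 and 1813, with overlap at Nae1WT replicate 1 (-0.17 ± 0.09, adjusted p = 0.228). None of the 3 was called in any of the 19 alternatives run, and the sign was negative in all of them. The 95% intervals reached from -0.36 to 0.09 across the 3 genes, so that a change beyond 1.28-fold either way lay outside each.

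**Figure D4:**
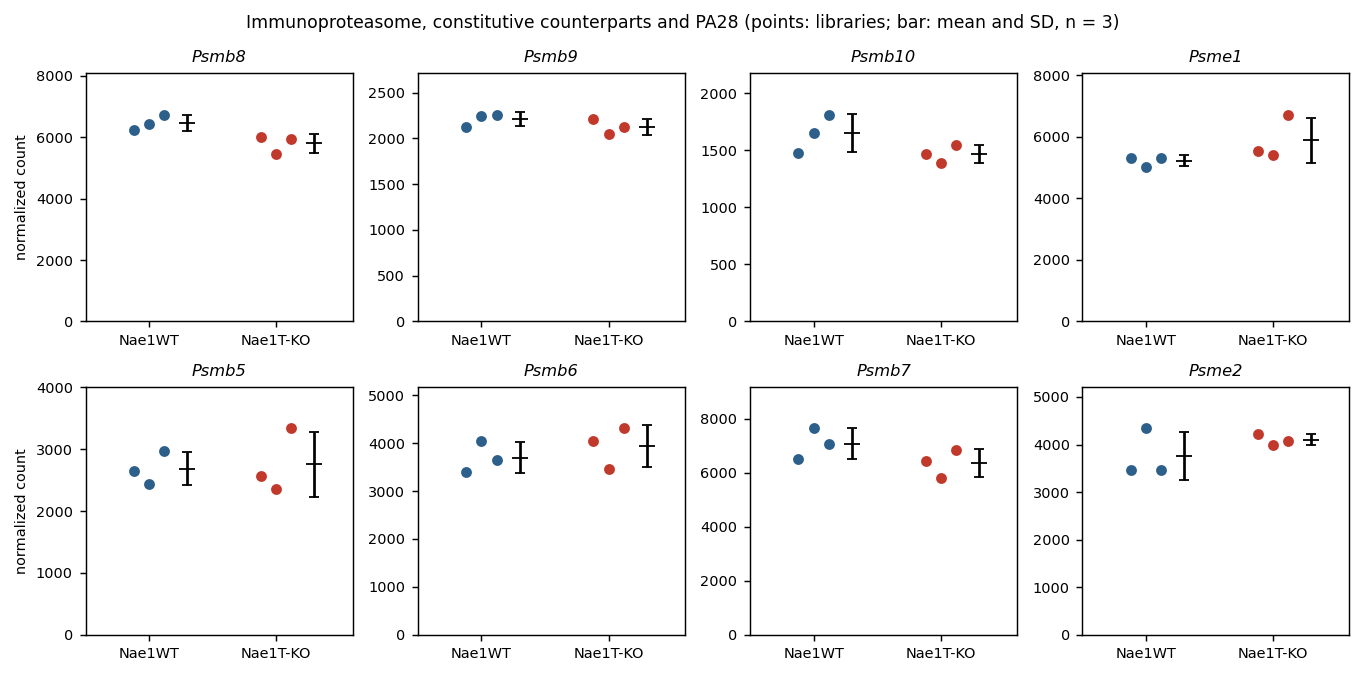
Normalized counts of the immunoproteasome genes Psmb8, Psmb9 and Psmb10, their constitutive counterparts Psmb5, Psmb6 and Psmb7 below them, and the PA28 genes Psme1 and Psme2, in each library (points), with the mean and SD of 3 libraries per group. Vertical axes start at 0 and differ between panels; Psmb8 lies at 5444 to 5999 in Nae1T-KO and at 6223 to 6739 in Nae1WT.

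Per kilobase of transcript, which allows levels of different genes to be compared, Psmb8 stood at 3974 in Nae1WT and 3563 in Nae1T-KO beside 2986 and 3064 for Psmb5. Psmb9 stood at 1636 and 1573 beside 4634 and 4933 for Psmb6, and Psmb10 at 1257 and 1117 beside 6099 and 5479 for Psmb7. Only Psmb8 thus exceeded its constitutive counterpart in normalized counts per kilobase, in both groups. The balance within each library was followed as the log2 ratio of normalized counts. For Psmb8 to Psmb5 it was 1.23, 1.21 and 0.83 in Nae1T-KO, compared with 1.23, 1.40 and 1.18 in Nae1WT, a difference of -0.18 (exact permutation p = 0.4, two-sided, adjusted over 3 ratios 0.6). For Psmb9 to Psmb6 it was -0.87, -0.76 and -1.02 against -0.67, -0.85 and -0.69, a difference of -0.15 (exact permutation p = 0.2, adjusted 0.6). For Psmb10 to Psmb7 it was -2.14, -2.07 and -2.14 against -2.14, -2.21 and -1.96, a difference of -0.01 (exact permutation p = 0.9, adjusted 0.9). With 3 libraries against 3 the smallest possible p is 0.1, so this design could not have reached 0.05. Leaving out Nae1T-KO replicate 3, where Psmb5 was highest, brought the difference for Psmb8 to Psmb5 to -0.06.

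The sequences before the start sites of Psmb5, Psmb6, Psmb8 and Psmb9 are shown because these subunits exchange places in the particle while their genes are switched on separately. By RefSeq on GRCm38.p6, Psmb8 (chromosome 17, 34198195 to 34201454) and Psmb9 (34182030 to 34187330) are neighbours in the MHC, with the peptide transporter gene Tap1 starting between them on the other strand from Psmb9, while Psmb10 lies apart on chromosome 8 (105935728 to 105938392). The interval between the start sites of Psmb9 and Tap1 holds 225 bases and is given whole. Sequences run 5′ to 3′ on the strand of the named gene, from RefSeq on GRCm38.p6. Capitals mark TGACNNNGC, the antioxidant response element, in Psmb5 (chr14:54617996-54618115, minus strand) and Psmb6 (chr11:70525237-70525356, plus strand), and TTCNNNGAA, the STAT site, in Psmb8 (chr17:34198075-34198194, plus strand). In the interval of Psmb9 and Tap1 (chr17:34187331-34187555, minus strand) they mark GGGCGG, the GC box, and CCAAT read from the opposite strand.
Psmb5: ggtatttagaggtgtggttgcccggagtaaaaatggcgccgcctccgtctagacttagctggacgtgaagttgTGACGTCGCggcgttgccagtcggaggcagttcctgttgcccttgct
Psmb6: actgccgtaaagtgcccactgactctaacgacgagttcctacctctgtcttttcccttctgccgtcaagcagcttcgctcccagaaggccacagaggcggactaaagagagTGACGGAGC
Psmb8: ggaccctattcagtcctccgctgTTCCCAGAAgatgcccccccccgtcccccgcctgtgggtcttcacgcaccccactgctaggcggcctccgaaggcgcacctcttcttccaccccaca
Psmb9 to Tap1: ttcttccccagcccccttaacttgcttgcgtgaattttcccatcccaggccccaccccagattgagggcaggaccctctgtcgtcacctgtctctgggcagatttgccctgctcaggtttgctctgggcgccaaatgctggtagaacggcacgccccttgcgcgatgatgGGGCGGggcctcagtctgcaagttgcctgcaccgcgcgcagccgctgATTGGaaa

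RefSeq windows from 250 bases before to 50 after the start were given for 42 of the 51 genes and were searched on both strands. TGACNNNGC was found in 6 of them (Psmb5, Psmb6, Psmc6, Psmd9, Psmd12 and Psme4), beside 12.4% of all 32851 windows. The interferon response element, GAAA repeated after NN, was found in 5 (Psmb3, Psmd4, Psmd9, Psme1 and Psmg4), beside 3.44% of all windows. TTCNNNGAA was found in 3 (Psmb8, Psmd2 and Psmg1), beside 8.30%. CCAAT was found in 15, beside 37.4%, and GGGCGG in 24, beside 35.7% of all windows and 59.7% of the 12772 windows of tested genes. The motifs can overlap one another. A match is a description of the letters only. Of the genes called, Psmd4 had a window, and Psmd3 and Psmd7 were not among those given.

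The activators and the inhibitor of the core showed no calls by limma. An unadjusted p under 0.05 was found for 2 of the 5, beside 29.1% of all genes tested. Psme1 and Psme2 form PA28, the interferon-inducible ring that opens the core without ubiquitin. Psme1 had 5532, 5391 and 6716 in Nae1T-KO against 5314, 5025 and 5320.3 in Nae1WT, without overlap (log2 fold change 0.17 ± 0.09, adjusted p = 0.237), and it overlaps Emc9. Psme2 had 4222, 3996.5 and 4076 against 3472, 4349.7 and 3466 (0.13 ± 0.09, adjusted p = 0.37). Nae1WT replicate 2 was the highest library for Psme2. Psme1 and Psme2 thus had the opposite sign to Psmb8, Psmb9 and Psmb10, which interferon also induces. None of these genes was called, and the contrast between them was not tested. Psme2b, an intronless copy of Psme2, had 1906, 1698 and 1694 against 1450.1, 1854.5 and 1551, with the same library on top within Nae1WT (0.13, adjusted p = 0.402), and reads of Psme2 and Psme2b may be shared.

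Psme3, the nuclear PA28 gamma subunit, had 6964, 7375 and 6379.7 in Nae1T-KO against 7813, 7500.4 and 7749 in Nae1WT, without overlap (log2 fold change -0.16 ± 0.07, adjusted p = 0.172). Psme4, the large PA200 activator, had 1995, 1940.5 and 1824 against 2154, 2082 and 2145, also without overlap (-0.15 ± 0.07, adjusted p = 0.165). Psmf1, known as the inhibitor PI31, had 756.0, 812.5 and 852.2 against 741.6, 702.5 and 653.2, the largest change of the activators and inhibitor (0.21 ± 0.08, adjusted p = 0.136). The groups did not overlap for 4 of these 5 genes, 2 in each direction, beside 33.7% of all genes tested.

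The 7 assembly factors had a median log2 fold change of -0.15, with 6 negative values and no call by limma. An unadjusted p under 0.05 was found for 1 of the 7, beside 29.1% of all genes tested. Psmg1, which with Psmg2 starts the alpha ring, had 1139, 1044 and 1223 in Nae1T-KO against 1246, 1252 and 1385 in Nae1WT, without overlap (-0.19 ± 0.08, adjusted p = 0.156). Its partner Psmg2 lay at -0.03, and Psmg3 and Psmg4, the second alpha ring chaperone pair, at -0.15 and -0.04. Psmd5, Psmd9 and Psmd10 are chaperones of the base ATPases. Psmd5, the assembly gene with the highest mean, had 1655, 1478 and 1435 against 1567, 1781 and 1773 (-0.17 ± 0.08, adjusted p = 0.213). Psmd10 (gankyrin) lay at -0.17 without overlap and overlaps Atg4a. Psmd9 alone was positive, at 0.12, also without overlap (adjusted p = 0.300).

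Outside the prefix, Pomp, which matures the beta rings, had 2874, 2549.5 and 3269.6 in Nae1T-KO against 2675.5, 2935 and 2781 in Nae1WT (0.04 ± 0.09, adjusted p = 0.792). Akirin2, which carries proteasomes into the nucleus, was higher in Nae1T-KO, with 1032, 922.7 and 1045 against 780.9, 822.7 and 844.3 (log2 fold change 0.29 ± 0.08, adjusted p = 0.038, called in 11 of 19 alternatives). By the RefSeq spans Akirin2 overlaps Orc3, and reads may be shared. Fbxo7, a partner of PI31, and Ecpas, which holds the particle together under stress, had negative values of -0.12 and -0.09 without overlap and no call.

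Names with the prefix do not all encode proteasome parts. Psmc3ip, a recombination factor, lay at -0.09. Psme3ip1, a binding partner of Psme3, had 951.8, 1080.4 and 1098 in Nae1T-KO against 892.6, 882.3 and 896.9 in Nae1WT, without overlap (0.23 ± 0.08, adjusted p = 0.087), and it overlaps Rspry1. The pseudogene Psma5-ps lay at -0.06, and Psmb7-ps1 at -0.01 with a 95% interval of -0.98 to 0.96 and counts from 6.09 to 17.2. A change within that interval was not detectable at this depth.

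The surrounding route was read through 39 genes listed for their role: 6 were higher in Nae1T-KO, 2 were lower and 31 did not pass. That is 8 of 39 called either way, beside 12.7% of all genes tested (6.53% higher and 6.18% lower), and DESeq2 called 3 of the 39 lower. Besides Adrm1 and Akirin2, Zfand5, which binds the 26S particle and speeds its turnover of substrates, had 1171, 1287 and 1466 against 992.1, 1053 and 959.3 (log2 fold change 0.38 ± 0.09, adjusted p = 0.023, called in 14 of 19). Vcp, the ATPase p97 that extracts ubiquitylated proteins for the proteasome, had 13941, 14275 and 14931 against 12554, 12459 and 11365 (0.25 ± 0.07, adjusted p = 0.042, called in 10 of 19). Its cofactors Nploc4 and Ufd1 lay at 0.14 and 0.06 without a call. Of 6 shuttle factors, which carry ubiquitylated proteins to the cap, Ubqln4 was higher, with 2551, 2775 and 2282 against 2102, 1912 and 2094 (0.31 ± 0.08, adjusted p = 0.034, called in 11 of 19). Ubqln2 and Ubqln1 lay at 0.28 (adjusted p = 0.075) and 0.16 without overlap, and Rad23b at -0.12. Leaving out single libraries ended the calls of Adrm1 (adjusted p = 0.067 to 0.117) and Vcp (0.062 to 0.183) for every library, that of Akirin2 (0.075 to 0.106) for each but Nae1T-KO replicate 2, and that of Ubqln4 (0.058 to 0.133) for each but Nae1T-KO replicate 3. Zfand5 lost its call without Nae1T-KO replicate 2, Nae1WT replicate 1 or Nae1WT replicate 3 (0.054 to 0.085).

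Regulators of proteasome genes did not move as one. Nfe2l1, which drives subunit genes when proteasome activity is short, had 2708, 2720.4 and 2183 in Nae1T-KO against 2545, 2279.9 and 2433 in Nae1WT (0.06 ± 0.09, adjusted p = 0.702). Ngly1, the enzyme that removes glycans from the Nfe2l1 protein, was lower, with 628.5, 653.0 and 648.3 against 912.3, 879.1 and 880.1 (-0.47 ± 0.07, adjusted p = 0.0033, called in 18 of 19 alternatives). By the RefSeq spans Ngly1 overlaps Oxsm, and reads may be shared. Nfe2l2, the antioxidant regulator, had 711.3, 734.1 and 726.0 against 664.3, 633.5 and 610.6, without overlap (0.19 ± 0.08, adjusted p = 0.139). Both Nfe2l1 and Nfe2l2 are controlled largely as proteins, which these data do not measure.

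Among interferon-side regulators, Irf7 was higher in Nae1T-KO, with 154.3, 302.3 and 309.0 against 92.1, 89.9 and 105.8 (1.34 ± 0.25, adjusted p = 0.0084, called in 18 of 19). The summed myeloid and dendritic markers also separated the groups (93.9 to 170.1 against 26.1 to 55.3), and their part in the Irf7 result was not tested. Irf1, which induces the immunoproteasome genes, had 2491, 2941 and 2978 against 3243, 2914 and 3026 (-0.13 ± 0.08, adjusted p = 0.332), and Nlrc5, the MHC class I transactivator, had 2656, 3174 and 2824 against 3307, 2882 and 2963 (-0.08 ± 0.08, adjusted p = 0.562).

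Downstream of the immunoproteasome, the peptide transporter genes Tap1 and Tap2 had log2 fold changes of 0.11 ± 0.08 (adjusted p = 0.38) and 0.003 ± 0.07 (adjusted p = 0.982). Tap1 had 4367, 4269.7 and 3841 in Nae1T-KO against 4081, 3574 and 3910.3 in Nae1WT, so that the gene sharing the 225-base interval with Psmb9 differed from it in sign, with neither called. Tapbp, B2m, H2-K1 and H2-D1 lay between -0.09 and 0.02. Erap1, which trims peptides in the endoplasmic reticulum, was lower in Nae1T-KO, with 3797, 4071 and 3734 against 5264, 4705 and 4661 (-0.33 ± 0.07, adjusted p = 0.015, called in 17 of 19 alternatives). By the RefSeq spans Erap1 overlaps Cast, and reads may be shared.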

How the data were processed

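The authors deposited 1 table of normalized counts for 6 RNA-seq libraries, a signal that is never negative, per the file headers 1 column per library. Per the submitters' processing notes, bcl2fastq, HISAT2, DESeq2 1.42.0 and the build mm10 were used. The sources used here do not give the read counter, annotation or use of strand, so reads of overlapping or near-identical genes may be shared, and 14 of the 51 proteasome genes overlap another measured gene. All values were whole multiples of the value of 1 read (tolerance 0.001 of a read), which gave back read counts for the alternatives. For Nae1T-KO replicate 3, where 1 read is worth close to 1, the values alone leave recovery less certain.

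The model was limma (3.58.1, R 4.3.3), fitted to log2(normalized count + 1) by group, using robust variances with a trend on the mean. Genes needed a normalized count of at least 10 in at least 3 libraries, and a call required a Benjamini-Hochberg value below 0.05 across the 13819 genes that qualified. The log2 scale understates changes of low genes. Ratios within libraries were compared by exact two-sided permutation tests. Alternatives used limma-voom, DESeq2 1.42.0 and edgeR 4.0.16 on recovered reads, other scalings, pseudocounts and filters, sex, replicate blocks and each library left out. Labels call the replicates biological without naming animals, so the p-values reflect only how these libraries vary. Each group held female and male libraries, so the libraries of a group did not all come from the same animal. Whether libraries of the same sex came from separate animals is not stated, and part of the variation may be technical. Whether the replicate numbers pair libraries is not stated in the labels.

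The members and lists, cell markers included, were chosen with earlier results of these data known. In each role, the genes named with values are those called, that with the highest mean and that with the largest change, with the catalytic and immunoproteasome subunits, PA28, Nae1, Pomp, Adrm1 and the regulators always named. Psmc5, Psmd14 and Psme4 were added after their values were seen, and other genes are given by their log2 fold change. Some listed genes are not reported here. Lengths are those of the principal GENCODE M21 transcript, and coordinates and promoters are RefSeq's on GRCm38.p6.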

Additional observations from a re-analysis of the deposited data

How the results depend on the processing

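Of 38 named genes under 19 alternatives, 642 values kept their direction and side of the threshold, 68 lost the call, 4 gained it and 8 changed sign. Proteasome genes called higher, 3 by the reported test, numbered 1 with no filter, 1 with sex as a covariate and 0 at an adjusted p under 0.01, and 0 to 3 when single libraries were left out. Those called lower, 0 as reported, numbered 1 by DESeq2 and 0 to 1 with libraries left out; in both cases the gene was Psma4. Of the 39 related genes, the 6 called higher became 3 with sex and 1 at an adjusted p under 0.01, with 1 to 4 over the libraries left out, and the 2 called lower became 1 at an adjusted p under 0.01. With a replicate block by title number, the calls were 0 proteasome genes, 1 related gene higher and 1 lower, and with a replicate block by library name on 4 libraries they were 0, 0 and 0. Same-numbered libraries did not deviate from their group means together: their correlations were -0.13, -0.18 and -0.27 by title, and -0.13 and -0.27 by library name. Same-numbered libraries by title also differed in sex, so these correlations cannot exclude a pairing, which the labels do not state. Over all genes, 1757 calls became 968 and 253 under these blocks and 844 to 1790 with libraries left out. The log2 ratio of Psmb10 to Psmb7, -0.01 as reported, lay between -0.066 and 0.059 with libraries left out, those of Psmb8 to Psmb5 between -0.25 and -0.055 and of Psmb9 to Psmb6 between -0.21 and -0.074. Signs also changed, without a call, for Psmb5 (-0.12 to 0.13 with libraries left out), Pomp (-0.046 to 0.13) and Tap2 (-0.031 to 0.048, and -0.0011 with upper-quartile scaling). Across the settings 13 to 14 of the 17 cap genes, 3 to 7 of the 14 core genes and 0 of the 3 immunoproteasome genes had positive changes. Scaling to total counts moved the median of all genes to 0.04. The causes were not tested, and settings with fewer libraries have less precision.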
